A study of Mus musculus with 9 samples.

Results

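Protein phosphatase 1 (PP1) was described in the EGFP-SSC line through 8 genes, chosen by name with earlier results of these data known. They are the genes of the catalytic subunits Ppp1ca, Ppp1cb and Ppp1cc and of 5 regulators, Ppp1r2, Ppp1r7, Ppp1r8, Ppp1r10 and Cdca2. All 8 were found once each among the 46078 gene identifiers of the count files, and all 8 passed the expression filter in each comparison.

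PP1 is one of the main serine and threonine phosphatases of the cell. A catalytic subunit alone has little choice of substrate, and it is directed, held in place or inhibited by a regulatory subunit that docks on it. On chromosomes at the end of mitosis PP1 removes phosphate from histone H3, against kinases such as Aurkb, and in the testis the catalytic subunit Ppp1cc is known for a splice form made mainly by male germ cells.

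EGFP-SSC is a line of mouse spermatogonial stem cells (SSCs) of wild-type genotype that carries green fluorescent protein. The 3 libraries at 0 h came from the line in normal culture, on mouse embryonic fibroblasts whose division had been stopped with mitomycin C, in a medium with GDNF, basic FGF and EGF. The 3 libraries at 24 h and the 3 at 48 h came from EGFP-positive cells sorted after co-culture with an equal share of somatic cells from busulfan-treated testes of young mice, in a medium with BMP-4/7, retinoic acid, activin A, testosterone and FSH. The later groups therefore differ from the 0 h group in the neighbouring cells and the medium as well as in time, and these cannot be told apart. The replicates are labelled biological replicates of 1 line.

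The libraries held 16825251 to 22201892 counts. Stra8 and Kit, genes of differentiating spermatogonia, averaged 2.58 and 8.48 CPM (counts scaled by library size) in the 0 h libraries, then 913 and 568 at 24 h, then 485 and 329.9 at 48 h. The 6 germ cell markers summed to 1980.3 to 3094 CPM in the 9 libraries, and the summed level of the 6 fibroblast and stromal markers ran from 261 to 357 CPM at 0 h, from 2096 to 2425 at 24 h and from 2809 to 3104 at 48 h. The 5 myoid and smooth muscle markers summed to 13.7 to 15.5 CPM at 0 h, 144 to 204 at 24 h and 252 to 311 at 48 h, and the 6 Sertoli cell markers to 14.4 to 18.3, 35.1 to 49.3 and 45.2 to 47.7 CPM, with Dhh at 3 counts or fewer at 0 h. The 5 Leydig cell markers went from 4.39 to 6.80 CPM at 0 h, with Hsd3b1 and Insl3 at 0 counts, to 24.6 to 38.6 and 25.2 to 32.6 CPM, while the 4 endothelial markers went from 43.3 to 47.3 down to 14.4 to 18.7 and 12.2 to 12.8 CPM and the 5 macrophage markers from 15.5 to 18.3 down to 6.21 to 10.1 and 6.34 to 9.22 CPM, with Adgre1 at 3 counts or fewer at 0 h and Ptprc at 48 h. Some genes went against the sum of their list, by edgeR's quasi-likelihood test at an adjusted p up to 0.05. At 24 h versus 0 h 5 Sertoli cell markers were higher and 1 lower. There 1 endothelial marker was higher and 2 lower, and 1 macrophage marker higher and 1 lower. At 48 h versus 0 h 1 endothelial marker was higher and 2 lower. Of 3 macrophage markers tested there, 1 was lower and 2 had a positive log2 fold change. From 24 h to 48 h 5 fibroblast and stromal markers were higher and 1 lower, and 1 Sertoli cell marker was higher and 1 lower. At 24 h versus 0 h the lowest fibroblast and stromal marker was at -0.11 and the lowest myoid and smooth muscle marker at -0.48 (log2 fold change). Neither of these was called. By the sums somatic RNA moved with the time points, and its part in the levels of the PP1 genes was not tested. In such bulk samples fewer cells that express a gene and less RNA of it per cell cannot be told apart. The 0 h libraries were also the most unlike each other, since a chi-square of the counts of a replicate pair, divided by its degrees of freedom, was 35.5 to 81.4 there against 7.13 to 26.0 within the later groups.

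The 3 catalytic subunits are products of separate genes that are nearly alike in the enzyme core and part at the carboxyl end. The coding ends are shown because they are where the genes, and the splice forms of Ppp1cc, can be told from each other. Each line gives the last 90 coding bases, stop codon included, 5′ to 3′ on the plus strand of GRCm38. For Ppp1ca and Ppp1cb capitals mark bases that are not the same as the aligned base of Ppp1cc-202 or have no partner in the alignment. For the forms of Ppp1cc capitals mark the bases after the point where the forms part.
Ppp1ca-201: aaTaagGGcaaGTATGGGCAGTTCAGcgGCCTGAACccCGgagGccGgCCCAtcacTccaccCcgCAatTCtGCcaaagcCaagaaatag
Ppp1cb-201: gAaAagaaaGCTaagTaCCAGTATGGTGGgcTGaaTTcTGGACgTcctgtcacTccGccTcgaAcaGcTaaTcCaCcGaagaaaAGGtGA
Ppp1cc-202: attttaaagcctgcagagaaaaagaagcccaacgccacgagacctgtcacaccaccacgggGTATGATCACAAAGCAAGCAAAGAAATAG
Ppp1cc-201: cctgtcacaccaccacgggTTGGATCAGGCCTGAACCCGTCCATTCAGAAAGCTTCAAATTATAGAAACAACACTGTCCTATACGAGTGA

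The Ppp1ca end lies in the last coding exon at chr19:4195003-4195092, that of Ppp1cb at chr5:32490969-32491058 and that of Ppp1cc-202 at chr5:122174055-122174144. The Ppp1cc-201 end is split over a pair of exons, chr5:122174097-122174115 and chr5:122174980-122175050, so it skips the bases with which Ppp1cc-202 closes its reading frame. The coding sequences hold 993 bases (330 residues) in Ppp1ca, 984 (327) in Ppp1cb, 972 (323) in Ppp1cc-202 and 1014 (337) in Ppp1cc-201. Over the coding sequence Ppp1ca matched Ppp1cc-202 at 79.0% of the bases of the shorter one, with no identical run over 44 bases, Ppp1cb matched Ppp1cc-202 at 75.1% with no run over 23 bases, and Ppp1ca matched Ppp1cb at 74.6%. The deposited counts are per gene, so the splice forms of Ppp1cc were not resolved.

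Several genes could take or lend reads, and counts of the main ones are given. Ppp1cc had a near copy in the annotation, the processed pseudogene Ppp1ccb, which matched 59.2% of the longest Ppp1cc transcript over windows of 75 bases at 97% identity. Ppp1ccb held 1220 to 1744 counts in the 9 libraries, a mean of 14.5% of the Ppp1cc count at 0 h, 13.6% at 24 h and 13.8% at 48 h. Another pseudogene, Gm14122, matched 34.8% and held 5 to 18 counts. The level of Ppp1cc is therefore uncertain by reads that match more than 1 place. Ppp1ca (chr19:4192065-4195420) shared 225 exon bases with Rad9a on the other strand, and the library preparation as described does not mark strand. Rad9a held 486 to 1064 counts against 3974 to 13468 for Ppp1ca. Ppp1cb (chr5:32458843-32517433), Ppp1r8 (chr4:132826929-132843169) and Cdca2 (chr14:67676331-67715841) matched no other gene in this way, though 17.5% of the exon bases of Ppp1cb are also annotated to Gm43312 on the same strand, which held at most 3 counts. If reads on exons of more than 1 gene were left out of the counting, the level of Ppp1cb would read too low. This was not tested. Processed pseudogenes of Ppp1r2 (chr16:31251537-31275277) matched 14.9% of its transcript and held at most 25 counts, and copies of Ppp1r10 (chr17:35916434-35932283) matched 17.0% of its transcript and held at most 12 counts. Ppp1r7 (chr1:93342854-93373489) shared 225 exon bases with Pask on the other strand, which held 2047 to 3163 counts against 1754 to 2319 for Ppp1r7, and stretches of 271 bases or less, 5.10% of its longest transcript in all, with 1333 other genes.

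Ppp1ca, the alpha catalytic subunit, showed the widest change of the 8 genes. Its level was 418, 534 and 671 CPM in the 0 h replicates 1, 2 and 3, then 282, 235 and 293 CPM at 24 h, and 221, 219 and 201 CPM at 48 h. Each 24 h library lay below every 0 h library and each 48 h library below every 24 h library. The log2 fold change was -0.99 (SE 0.18, 95% confidence interval -1.42 to -0.56, n = 3 against 3) at 24 h versus 0 h. Its adjusted p was 0.00728 by edgeR's quasi-likelihood test after Benjamini-Hochberg adjustment over all genes tested, the test meant by every adjusted p that names no other tool. The 48 h value versus 0 h was -1.34 (SE 0.17, adjusted p = 0.00121), a level at 0.395 of that at 0 h. Both falls were called in each of the 15 alternative fits, at log2 fold changes from -1.14 to -0.78 for 24 h and from -1.50 to -1.11 for 48 h. The step from 24 h to 48 h was smaller, -0.35 (SE 0.09, adjusted p = 0.0202). It was called in 8 of 15 alternatives and not when the spread was taken from all 9 libraries (-0.34, adjusted p = 0.267), with offsets for GC content and length (-0.16, adjusted p = 0.146) or without 24 h replicate 1 or 3 or 48 h replicate 1 or 3 (adjusted p from 0.071 to 0.0842).

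Ppp1cb, the beta catalytic subunit, is the form that the myosin phosphatase targeting subunits use. It stood at 385, 273 and 149 CPM in the 0 h replicates, at 125, 141 and 146 CPM at 24 h and at 145, 139.7 and 163 CPM at 48 h. The 0 h libraries had a coefficient of variation of 44.0%, against 8.09% at 24 h and 8.35% at 48 h, and they ran in the opposite order to those of Ppp1ca. The 24 h libraries lay below all 0 h libraries, while the 48 h libraries overlapped them through 0 h replicate 3. The log2 fold change was -0.96 (SE 0.31, adjusted p = 0.0579) at 24 h and -0.85 (SE 0.31, adjusted p = 0.0760) at 48 h versus 0 h, about as large as that of Ppp1ca at 24 h but not past the threshold. Without 0 h replicate 3 the values were -1.22 (adjusted p = 0.00108) and -1.12 (adjusted p = 0.00182), and without 0 h replicate 1 they were -0.60 (adjusted p = 0.0895) and -0.50 (adjusted p = 0.128). DESeq2 with all libraries called both, at adjusted p of 0.00915 and 0.0274. Between 24 h and 48 h the difference was 0.11 (95% confidence interval -0.08 to 0.30, adjusted p = 0.374).

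Ppp1ca and Ppp1cb also lie at the ends of the 8 genes in base composition. The longest transcript of Ppp1ca has 56.1% G and C and that of Ppp1cb 40.8%. Whether this set their spread at 0 h was not tested. With offsets that take out each library's trend with GC content and length, the SE of Ppp1cb fell to 0.11 and 0.12 and its differences were -0.96 (adjusted p = 0.000229) at 24 h and -1.08 (adjusted p = 0.000174) at 48 h. The same fit gave -0.95 (adjusted p = 0.000199) and -1.11 (adjusted p = 3.56e-05) for Ppp1ca.

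Ppp1cc (chr5:122158278-122175273), the gamma catalytic subunit and the one that Cdca2 brings to chromosomes, did not pass the test in any comparison. It stood at 504.5, 494 and 599 CPM at 0 h, 533, 504.5 and 551 CPM at 24 h and 478, 507 and 475 CPM at 48 h, and the groups overlapped throughout. The log2 fold change was 0.0056 (95% confidence interval -0.26 to 0.27) at 24 h and -0.13 (-0.40 to 0.14) at 48 h versus 0 h, and -0.13 (-0.27 to 0.0052, adjusted p = 0.151) between 24 h and 48 h. None of the 45 alternative fits of the 3 comparisons called it. Against 0 h the intervals reach down to -0.40, which is a smaller change than that fitted for Ppp1ca at either time.

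**Figure D1:**
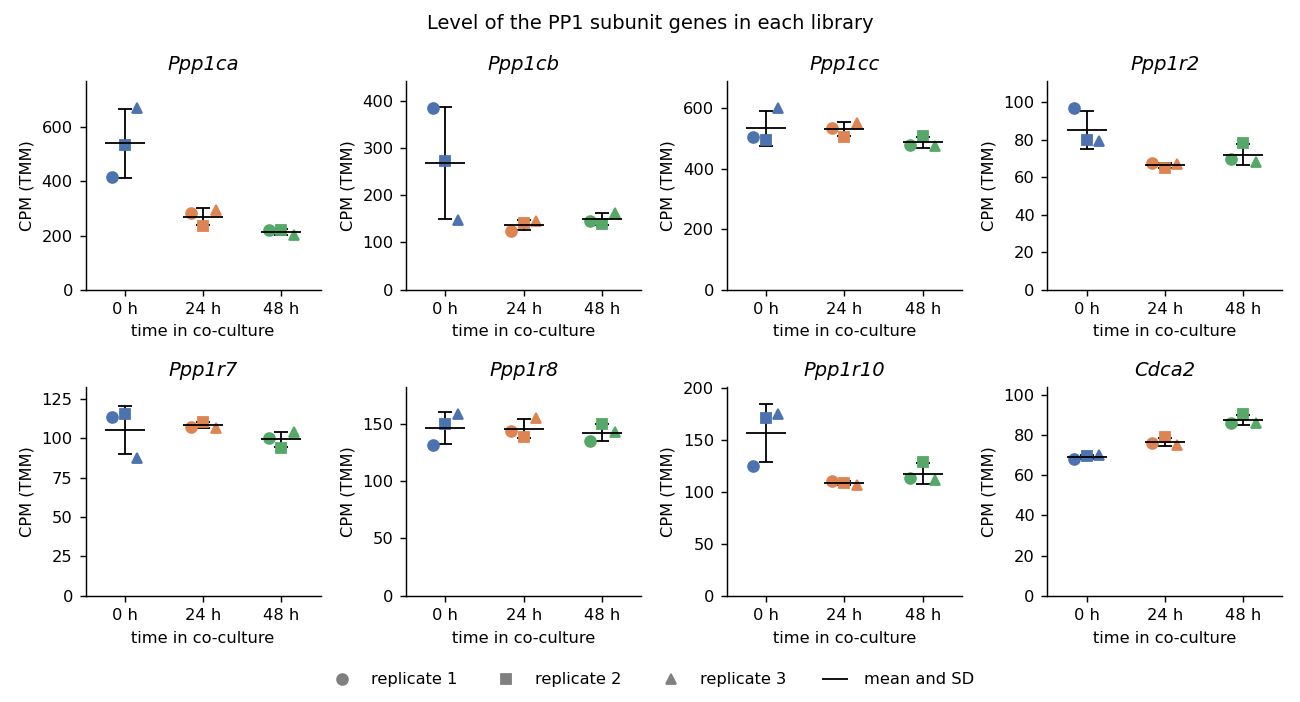
Level in CPM, TMM-normalized over the 9 libraries, of each of the 8 PP1 subunit genes at 0 h, 24 h and 48 h, with 1 symbol per replicate, the mean as a bar and the SD as whiskers. Ppp1ca fell from 418 to 671 CPM at 0 h to 201 to 221 CPM at 48 h, the 0 h libraries of Ppp1cb spread from 149 to 385 CPM, and Cdca2 rose from 67.9 to 70.0 CPM up to 85.8 to 90.3 CPM.

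Levels of different genes can be set side by side only per length, and FPKM was computed as TMM-normalized CPM per kilobase, with the union of all annotated exons as length. Ppp1ca stood at 166, 212 and 266 FPKM in the 0 h libraries and Ppp1cc at 147, 144 and 175 FPKM. At 24 h the values were 112, 93.3 and 116 FPKM for Ppp1ca and 156, 147 and 161 FPKM for Ppp1cc, and at 48 h they were 87.7, 86.9 and 79.9 FPKM against 139.6, 148 and 139 FPKM. Ppp1ca was thus the higher of the pair in each 0 h library and Ppp1cc in each of the 6 later libraries. The ratio of Ppp1cc to Ppp1ca was 0.888, 0.680 and 0.657 at 0 h, 1.39, 1.58 and 1.38 at 24 h and 1.59, 1.70 and 1.74 at 48 h. With the longest transcript as length the ratios ran from 0.528 to 0.713 at 0 h, from 1.11 to 1.27 at 24 h and from 1.28 to 1.39 at 48 h, so the order of the pair in each library was the same under both lengths. Counts of the near copy Ppp1ccb, a mean of 14.5% of the Ppp1cc count at 0 h, were not added to Ppp1cc. Adding them could turn the order in 0 h replicate 1, where the ratio was 0.888 with the union of exons.

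As shares of the summed FPKM of the 3 catalytic genes, Ppp1ca took 53.9% ± 5.67 (SD, n = 3) at 0 h. At 24 h its share was 39.0% ± 1.89, and at 48 h it was 35.2% ± 1.13. Ppp1cc took 39.5% ± 2.41, 56.4% ± 1.48 and 59.1% ± 0.905. Ppp1cb took the remaining 6.56% ± 3.57, 4.60% ± 0.501 and 5.70% ± 0.642. The shares of Ppp1ca and of Ppp1cc did not overlap between 0 h and either later time, and the two-sided exact permutation test gave p = 0.1 for each of these 4 differences, the smallest value that 3 against 3 libraries can give, or 0.15 after adjustment over the 9 share comparisons. The summed level was 395 ± 54.6 FPKM in the 0 h group, 275 ± 19.1 at 24 h and 241 ± 7.13 at 48 h, with all 3 of the 0 h libraries above all later ones. These are RNA levels, and the amount of each protein was not analysed here.

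**Figure D2:**
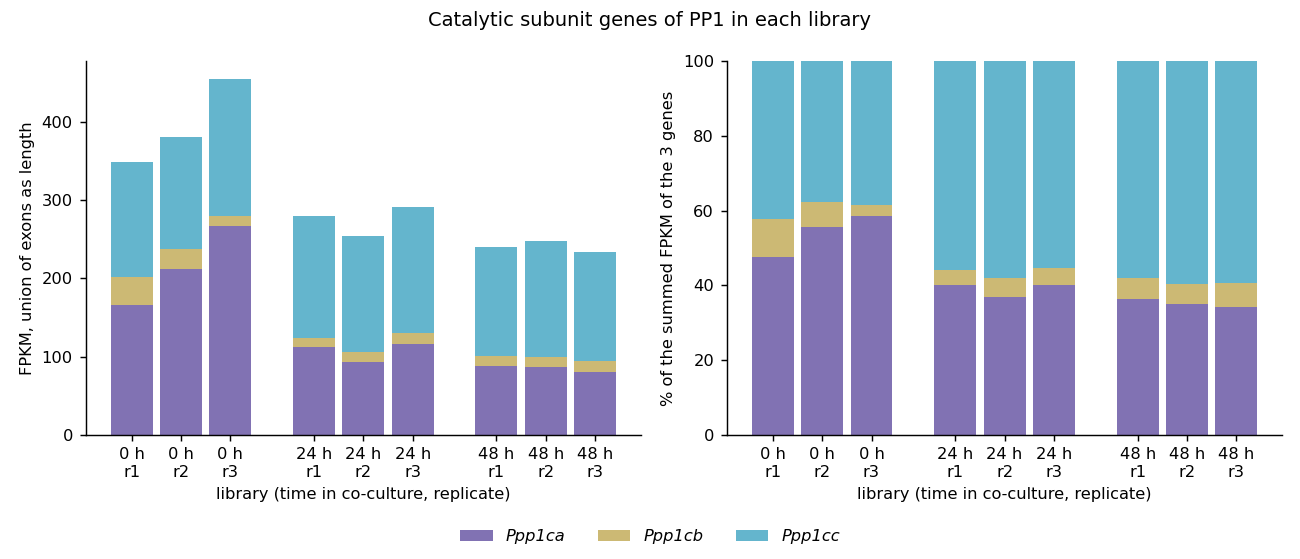
FPKM (left) and percent of the summed FPKM (right) of the catalytic subunit genes Ppp1ca, Ppp1cb and Ppp1cc in each of the 9 libraries, stacked in 1 bar per library (r1 to r3, replicates). Ppp1ca took 47.6% to 58.5% at 0 h and 34.2% to 40.1% later, and Ppp1cc 37.8% to 42.3% at 0 h and 55.4% to 59.8% later.

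Below the catalytic pair, Ppp1r8 was the next gene per length in every group, with 50.1 ± 4.72 FPKM (SD, n = 3) in the 0 h libraries, then 49.8 ± 2.86 and 48.7 ± 2.48 FPKM, apart from the genes on either side. Ppp1r10 followed with 27.9 ± 4.95, 19.3 ± 0.356 and 20.9 ± 1.75 FPKM, and at 0 h it overlapped with Ppp1cb at 24.7 ± 10.9 FPKM. Ppp1r2 stood at 19.2 ± 2.26, 14.9 ± 0.288 and 16.2 ± 1.26 FPKM, Cdca2 at 12.1 ± 0.194, 13.4 ± 0.351 and 15.3 ± 0.449 FPKM, and Ppp1r7 was the lowest with 10.0 ± 1.47, 10.3 ± 0.191 and 9.46 ± 0.465 FPKM. At 24 h Cdca2 and Ppp1cb overlapped, and at 48 h Ppp1r2 and Cdca2 did. The order below Ppp1r8 depends on the length used, since with the longest transcript Ppp1cb stood above Ppp1r2 and Cdca2 in the later groups, with 23.0 ± 1.86 and 25.0 ± 2.09 FPKM against 16.3 ± 0.313 and 17.6 ± 1.37 FPKM for Ppp1r2. The longest transcript of Ppp1r7, at 10315 bases, is the longest of the 8 genes.

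Ppp1r2, inhibitor-2, binds the catalytic subunit and blocks its active site. It stood at 96.8, 79.5 and 79.2 CPM at 0 h, 67.3, 64.8 and 66.7 CPM at 24 h and 69.6, 78.3 and 67.9 CPM at 48 h. All later libraries lay below all 0 h libraries, 48 h replicate 2 by a small margin. The log2 fold change of -0.35 (SE 0.12, adjusted p = 0.0756) at 24 h and of -0.24 (SE 0.13, adjusted p = 0.204) at 48 h versus 0 h did not pass the threshold, and the 24 h value passed in 2 of 15 alternatives, a fit of all 9 libraries (adjusted p = 0.0267) and a fit that left out 0 h replicate 3 (adjusted p = 0.0438).

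Ppp1r7, known as SDS22, is a leucine-rich repeat protein that holds newly made or inactive catalytic subunit. Its level was 113, 115 and 87.4 CPM at 0 h, 107, 110.5 and 107 CPM at 24 h and 100.2, 94.0 and 104 CPM at 48 h. The 0 h libraries spanned the later groups, and the log2 fold changes were 0.052 (95% confidence interval -0.25 to 0.36) at 24 h and -0.085 (-0.40 to 0.23) at 48 h versus 0 h. From 24 h to 48 h the value was -0.13 (SE 0.06, adjusted p = 0.161), with all 48 h libraries below all 24 h libraries, and it passed only in the 2 fits with GC and length offsets, at -0.26 in both.

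Ppp1r8, known as NIPP1, is a nuclear subunit that carries PP1 to splicing factors and chromatin. It was the steadiest of the 8 in fold, at 131, 149.9 and 158 CPM at 0 h, 144, 139 and 155 CPM at 24 h and 135, 149.5 and 142 CPM at 48 h. The log2 fold change was 0.0056 for 24 h and -0.041 for 48 h against 0 h, and -0.044 from 24 h to 48 h, with 95% confidence intervals of -0.25 to 0.26, -0.30 to 0.22 and -0.19 to 0.11. The sign of each changed under some alternatives, and none of the alternatives called a difference.

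Ppp1r10, known as PNUTS, keeps PP1 on chromatin with Wdr82 and Tox4 and acts on RNA polymerase II. It stood at 125, 171 and 175 CPM at 0 h, 110.2, 109 and 106 CPM at 24 h and 113, 129 and 111 CPM at 48 h. The 24 h libraries were all below the 0 h libraries, and 48 h replicate 2 overlapped 0 h replicate 1. The gene fell by 0.52 on the log2 scale at 24 h (SE 0.14, adjusted p = 0.0333), and the call was kept in 8 of 15 alternatives, with values from -0.66 to -0.40. It was lost in the other 7, at adjusted p from 0.0507 to 0.138, among them library size alone (-0.40, adjusted p = 0.0753) and the fits without 0 h replicate 2, 0 h replicate 3 or any 1 of the 24 h libraries. For 48 h versus 0 h the value was -0.41 (SE 0.15, adjusted p = 0.0784), or -0.55 (adjusted p = 0.00809) without 0 h replicate 1, -0.30 (adjusted p = 0.170) without 0 h replicate 3 and -0.21 (adjusted p = 0.133) with GC and length offsets. From 24 h to 48 h it was 0.11 (adjusted p = 0.310), and with these offsets 0.25 (adjusted p = 0.0178), past the threshold.

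Neither of its named partners passed the test. Wdr82 averaged 114, 104 and 110.4 CPM in the 3 groups and Tox4 102, 104 and 96.5 CPM, with log2 fold changes between -0.12 and 0.077 and no adjusted p below 0.186. Whether Ppp1r10 differed from them in its change was not tested.

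Cdca2, known as Repo-Man, targets PP1 to chromosomes as cells leave mitosis and directs it at histone H3. Apart from Ppp1r10 from 24 h to 48 h in the fits with GC and length offsets, Cdca2 was the only one of the 8 called higher. Its level was 67.9, 69.7 and 70.0 CPM at 0 h, 76.2, 79.0 and 75.1 CPM at 24 h and 85.8, 90.3 and 85.9 CPM at 48 h, with a coefficient of variation of 1.60% to 2.94% within groups. No pair of groups overlapped. The log2 fold change from 0 h to 48 h was 0.34 (SE 0.10, adjusted p = 0.0335), a level 1.26 times that at 0 h, and the 24 h values of 0.16 (adjusted p = 0.270) versus 0 h and 0.18 (adjusted p = 0.0737) to 48 h did not pass. The direction was the same in each of the 45 alternative fits. The call at 48 h was kept in 9 of 15 alternatives and lost in the other 6, at adjusted p from 0.0972 to 0.132, among them the fits with no expression filter (adjusted p = 0.114) and without 0 h replicate 2 or any 1 of the 48 h libraries.

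**Figure D3:**
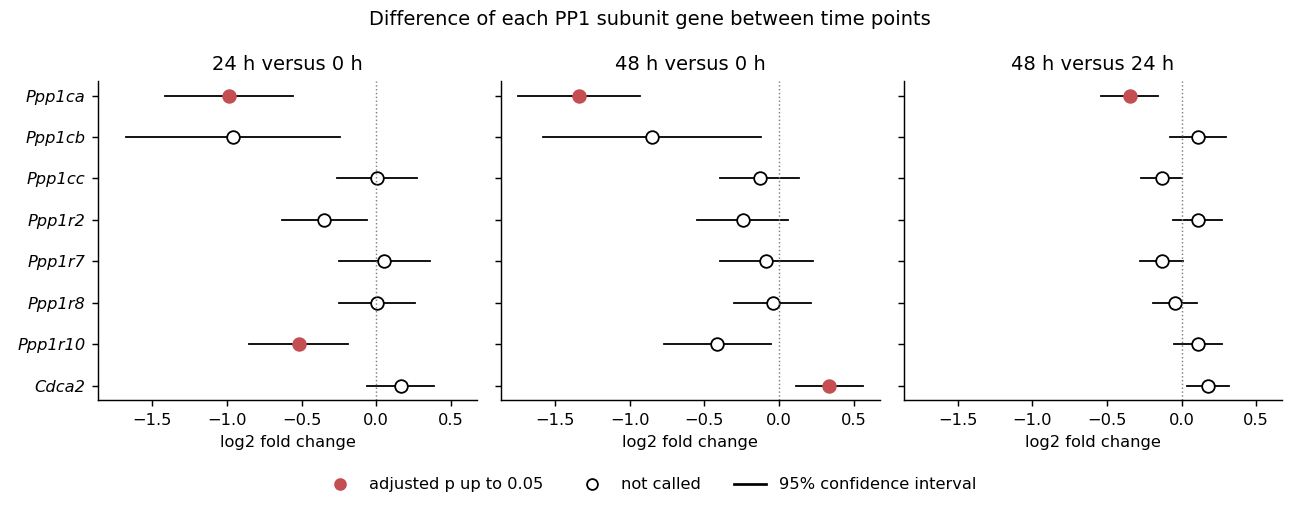
Log2 fold change of each of the 8 PP1 subunit genes in the 3 comparisons of time points, with its 95% confidence interval from the edgeR fit and filled symbols where the adjusted p is up to 0.05. Ppp1ca lies at -0.99, -1.34 and -0.35, Ppp1r10 at -0.52 at 24 h and Cdca2 at 0.34 at 48 h versus 0 h, and the intervals of Ppp1cc, Ppp1r7 and Ppp1r8 cross 0 in each comparison.

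Counted together, 2 of the 8 genes (25.0%) were called at 24 h versus 0 h, Ppp1ca and Ppp1r10, both lower, where 25.5% of the 17592 genes tested were called, 11.4% higher and 14.2% lower. Of the 8, 2 were called at 48 h versus 0 h, Ppp1ca lower and Cdca2 higher, against 31.6% of 17755 genes, 13% higher and 18.5% lower. From 24 h to 48 h 1 of 8 (12.5%) was called, Ppp1ca, lower, against 21.3% of 17499 genes, 8.61% higher and 12.7% lower. The libraries did not overlap for 5, 3 and 5 of the 8 genes, against 43.4%, 48.3% and 39.6% of all genes. As a group the 8 genes were thus called no more often than all genes. Their median log2 fold change was -0.17, -0.19 and 0.03, beside 0.0052, 0.017 and -0.0045 over all genes. The comparisons with 0 h share the 0 h libraries, so they are not independent of each other.

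The size of the changes differed between members. The fall of Ppp1ca at 48 h was larger than the absolute change of 87.1% of all genes tested, and the rise of Cdca2 at 48 h larger than 41.9%. Ppp1cc and Ppp1r8 at 24 h changed less than all but 0.887% and 0.892% of genes.

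**Figure D4:**
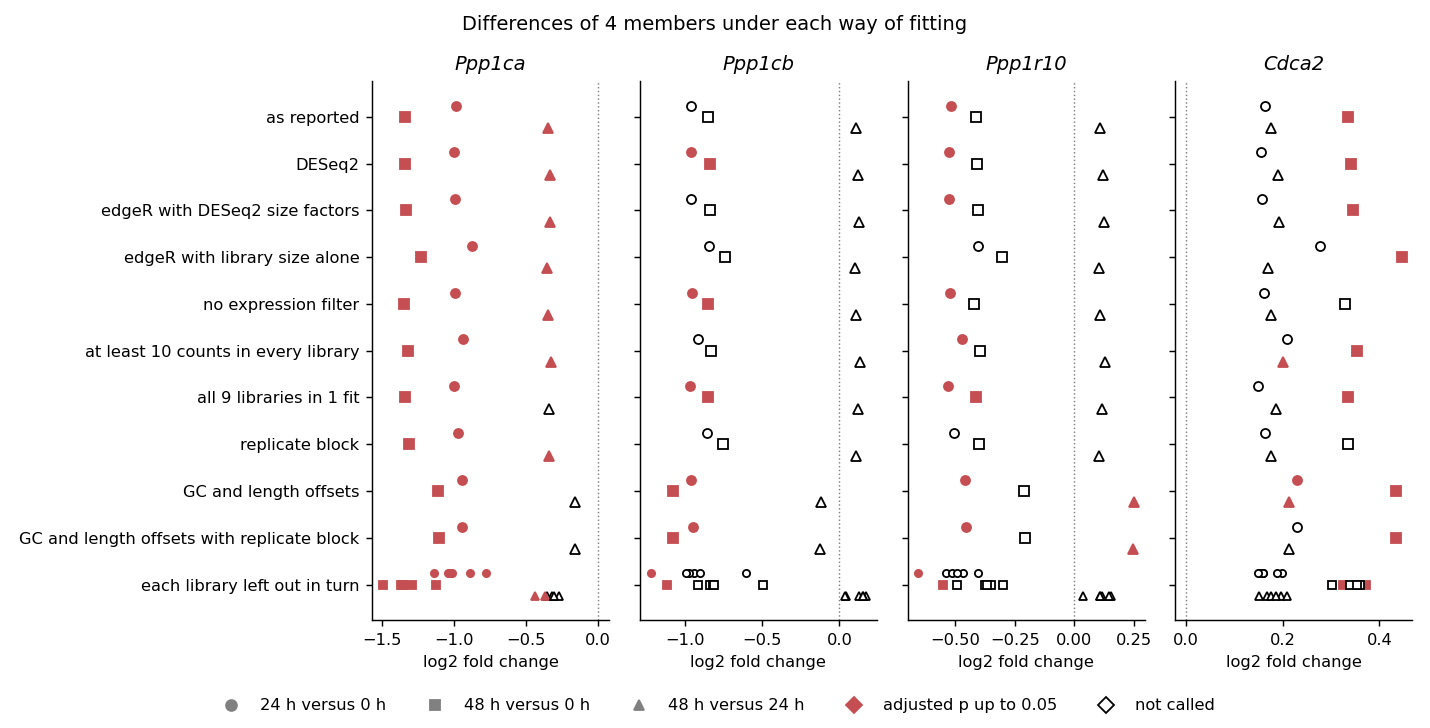
Log2 fold change of Ppp1ca, Ppp1cb, Ppp1r10 and Cdca2 in the 3 comparisons under each way of fitting, with filled symbols where the adjusted p is up to 0.05. The falls of Ppp1ca against 0 h are filled in every fit, those of Ppp1cb turn from open to filled with GC and length offsets (-0.96 and -1.08), and the step of Ppp1ca from 24 h to 48 h moves from -0.35 to -0.16 there.

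The genes whose profile over the 9 libraries was most like a called member were found by the root mean square (RMS) difference of centred log2 CPM among the 11974 genes with a mean of at least 5 CPM. Nearest to Ppp1ca were Efnb1 (RMS difference 0.07), Atp13a2 (0.10) and Ncs1 (0.11), where the profile of Ppp1ca itself has an RMS of 0.59. Nearest to Ppp1r10 were Brd2 (0.05), Dmrtc2 (0.06) and Akap1 (0.06) for an RMS of 0.26, and nearest to Cdca2 were Ube2e3 (0.04), Susd6 (0.04) and Mgrn1 (0.04) for an RMS of 0.14. The closeness is a description of these libraries.

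The other regulators of PP1 were taken as 7 lists of 40 genes, of which 35 were tested at 24 h and 48 h versus 0 h and 34 between the later times. Of these, 4 rose and 4 fell at 24 h, 4 rose and 5 fell at 48 h versus 0 h, and 2 rose and 10 fell from 24 h to 48 h, so 22.9%, 25.7% and 35.3% were called, beside 25.5%, 31.6% and 21.3% of all genes. Their median log2 fold change was 0.01, -0.06 and -0.15. From 24 h to 48 h alternative fits called 0 to 3 inhibitors, 1 to 2 glycogen targeting and 0 to 3 myosin targeting subunits. They called 0 to 1 eIF2 alpha phosphatase subunits, 0 to 2 actin and cytoskeleton regulators and 0 to 2 ASPP proteins. For the other numbered regulators the count was 1 to 3. The share of 35.3% thus depends on the fit.

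Among the actin and cytoskeleton regulators, 1 of 7 rose and 1 of 7 fell at 24 h and again at 48 h versus 0 h. Ppp1r18, phostensin, an actin-binding subunit, stood at 89.9, 175 and 173 CPM at 0 h, 54.6, 57.6 and 52.0 CPM at 24 h and 57.4, 63.4 and 50.6 CPM at 48 h, a fall of 1.40 and 1.35 (adjusted p = 0.00544 and 0.00647). Phactr1, which binds actin as well as PP1, stood at 0.749, 0.546 and 1.30 CPM at 0 h and between 2.96 and 4.69 CPM in the 6 later libraries, a rise of 2.22 at 24 h (adjusted p = 0.00354) and of 1.91 at 48 h (adjusted p = 0.00572). From 24 h to 48 h only Ppp1r9b, spinophilin, was called, at -0.48.

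Of the 5 myosin targeting subunits, which pair with Ppp1cb, 2 rose and 1 fell against 0 h at either time. Ppp1r16b stood at 38.6, 51.1 and 47.3 CPM at 0 h, 21.8, 20.5 and 17.2 CPM at 24 h and 15.5, 16.1 and 13.3 CPM at 48 h, and it fell at each step (-1.19, -1.61 and -0.41 in the 3 comparisons). Ppp1r12b rose from 25.8 to 42.5 and 45.7 CPM (0.73 and 0.82), Ppp1r16a rose at 24 h (0.60) and Ppp1r12a at 48 h versus 0 h (0.67) and versus 24 h (0.32). Ppp1r12c fell from 24 h to 48 h (-0.30).

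Of the 8 inhibitors, 6 were tested against 0 h. Ppp1r1b, known as DARPP-32, stood at 8.48, 11.7 and 15.4 CPM at 0 h, 25.5, 21.6 and 24.6 CPM at 24 h and 14.6, 18.3 and 18.8 CPM at 48 h, a rise of 1.03 (adjusted p = 0.0120) at 24 h and a fall of 0.48 from there to 48 h. Ppp1r14d fell by 1.16 at 24 h from a mean of 2.75 CPM, and Ppp1r14b fell by 0.54 from 24 h to 48 h. No inhibitor was called at 48 h versus 0 h by edgeR or by DESeq2, with 2 at an unadjusted p under 0.05.

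The glycogen targeting subunits had 0 of 6 tested genes called at 24 h by edgeR and by DESeq2 (1 at an unadjusted p under 0.05), 2 of 5 lower at 48 h versus 0 h (Ppp1r3d, -0.76, and Ppp1r3f, -0.95) and 2 of 6 lower from 24 h to 48 h (Ppp1r3b, -1.03, and Ppp1r3d, -0.69). Of the eIF2 alpha phosphatase subunits, none of 2 was called against 0 h by either tool, with 0 at 24 h and 1 at 48 h at an unadjusted p under 0.05, and Ppp1r15b rose by 0.24 from 24 h to 48 h. Of the ASPP proteins, none of 3 was called against 0 h by either tool, with 0 and 1 at an unadjusted p under 0.05, and Ppp1r13l fell by 0.57 from 24 h to 48 h. Of the other numbered regulators, Ppp1r26 stood at 46.7, 61.0 and 59.4 CPM at 0 h, 42.6, 36.9 and 38.6 CPM at 24 h and 26.4, 25.7 and 24.5 CPM at 48 h. It fell at each step (-0.49, -1.13 and -0.64), while Ppp1r21 rose at 48 h versus 0 h (0.76) and Ppp1r35 fell from 24 h to 48 h (-0.43).

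In the SHOC2 phosphatase, a complex of Shoc2, Mras and a PP1 catalytic subunit that acts on RAF kinases, Mras stood at 1.81, 2.93 and 2.84 CPM at 0 h, 7.91, 9.58 and 11.3 CPM at 24 h and 7.76, 8.48 and 5.98 CPM at 48 h. It rose by 1.93 (adjusted p = 0.0013) at 24 h and by 1.54 (adjusted p = 0.0037) at 48 h on the log2 scale against 0 h. Shoc2 itself stood at 71.3, 54.96 and 27.7 CPM at 0 h, 42.4, 48.0 and 46.9 CPM at 24 h and 58.0, 50.9 and 71.4 CPM at 48 h, with a rise of 0.38 from 24 h to 48 h (adjusted p = 0.0488). Over the alternatives the count of this list in that comparison was 0 or 1. Scrib was not called in any comparison.

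**Figure D5:**
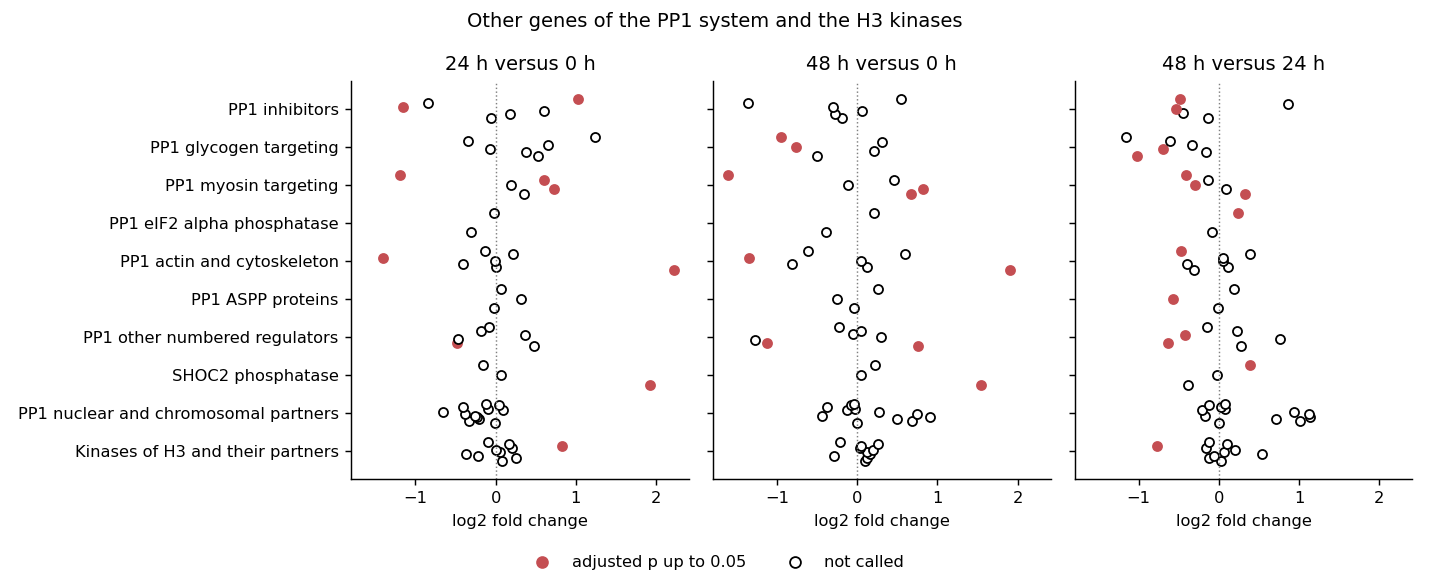
Log2 fold change of the tested genes of 10 lists (other PP1 regulators, SHOC2 phosphatase, PP1 partners in the nucleus and on chromosomes, kinases of H3 with their partners) in the 3 comparisons, 1 symbol per gene, filled where the adjusted p is up to 0.05. Phactr1 lies at 2.22 and Mras at 1.93 at 24 h and Ppp1r16b at -1.61 at 48 h versus 0 h, and no symbol is filled for the nuclear and chromosomal partners.

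None of the 12 partners of PP1 in the nucleus and on chromosomes was called in any comparison by edgeR or by DESeq2. Of all genes tested, edgeR called 25.5%, 31.6% and 21.3% in the 3 comparisons. At an unadjusted p under 0.05 there were 0, 1 and 4 of them in the 3 comparisons. Mki67, Cenpe, Rif1 and Knl1, singled out after their values were seen, varied several-fold within groups. Mki67, the Ki-67 protein of the chromosome surface, stood at 315, 44.1 and 110.1 CPM at 0 h, 73.1, 102 and 186 CPM at 24 h and 327, 72.2 and 391 CPM at 48 h. Cenpe stood at 123, 13.7 and 38.9 CPM, then 31.8, 29.0 and 78.5 CPM, then 121, 25.0 and 137 CPM, and Rif1 and Knl1 were likewise highest in 0 h replicate 1 and 48 h replicates 1 and 3. These transcripts are long, with 10061, 7910, 8509 and 7800 bases. Without 48 h replicate 2, 6 of the 12 partners were called from 24 h to 48 h. With all libraries kept, the alternatives called 0 to 5 of them there, the 5 with no expression filter, and 0 to 4 at 48 h versus 0 h.

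Among the kinases of H3 and their partners, which oppose PP1 on chromosomes, Aurkb stood at 85.3, 94.7 and 106.6 CPM at 0 h, 117, 114 and 106.6 CPM at 24 h and 105, 108 and 99.7 CPM at 48 h. The highest 0 h library and the lowest 24 h library differed only in the second decimal, and the log2 fold change was 0.25 (SE 0.12, adjusted p = 0.171). The values were 0.13 (adjusted p = 0.457) for 48 h versus 0 h and from 24 h to 48 h -0.12 (adjusted p = 0.218). Of the 10 genes, only Rps6ka4, the H3 kinase MSK2, was called. It stood at 8.23, 10.6 and 11.3 CPM at 0 h, 15.8, 19.3 and 17.9 CPM at 24 h and 10.8, 10.3 and 9.93 CPM at 48 h, a rise of 0.83 (adjusted p = 0.00907) followed by a fall of 0.78 (adjusted p = 0.0017). In the comparison of 48 h with 0 h none was called by edgeR or DESeq2, with 1 at an unadjusted p under 0.05.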

How the data were processed

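Poly-A RNA-seq of EGFP-SSCs covered 9 libraries, with 3 biological replicates for each time point. Nothing used here says more of how far the replicates were independent, so p-values measure the spread between these samples. The authors deposited counts per Ensembl gene without normalization, and the submitters' processing notes name fastp, HISAT2, featureCounts and GRCm38, with no versions. The annotation release used for counting is not given in the sources used here. Symbols, positions and lengths were taken from GENCODE M21 (GRCm38), which held 45229 of 46078 identifiers, and the other 849 took at most 0.121% of the counts of a library. The values were whole numbers with totals of 16825251 to 22201892. At such totals each of the 8 members had 1089 counts or more in every library. Counting error is not small beside a spread as narrow as that of Cdca2, with a coefficient of variation of 1.60% to 2.94% within groups.

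For each comparison its 6 libraries entered edgeR 4.0.16 (R 4.3.3), with filterByExpr, TMM normalization, a two-sided quasi-likelihood test on the whole table, Benjamini-Hochberg adjustment and 0.05 as threshold. The fits also gave standard errors and 95% confidence intervals. CPM used TMM factors of all 9 libraries, log2 CPM a prior count of 2, and FPKM was that CPM per kilobase of the union of exons. Shares were compared with two-sided exact permutation tests. Shared sequence was measured with BLAST 2.17.0 and coding ends were aligned with Biopython 1.88. Plots used matplotlib 3.10.9 (Python 3.11.15).

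Alternatives were DESeq2 1.42.0, its size factors in edgeR, library size alone, omitting the filter, a minimum of 10 counts per library, a joint fit of the 9 libraries, a block for the replicate number, GC and length offsets (natural splines, 5 and 4 degrees of freedom) alone or with that block, leaving out each library in turn, and for FPKM the longest transcript as length or library size alone as scaling.

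The members and the lists (7 of PP1 regulators, SHOC2 phosphatase, nuclear partners, H3 kinases, other phosphatases of mitotic exit, G2/M, S phase and markers of 7 cell types) were chosen with earlier results of these data known. Named were all 8 members, from each PP1-related list at most 4 called genes with the largest changes per comparison, Wdr82, Tox4, Aurkb and Shoc2 in any case, and the 3 genes nearest to each called member. Nothing in the labels says that equal replicate numbers mark a shared batch. The procedure was tested on simulated data: for 24 h versus 0 h, among 17264 genes with 200 changed, it called 81.5% of the genes changed 4-fold, 22.4% of those changed 2-fold and 1.52% of those changed 1.5-fold, with 3 false calls, and 0 of 17212 genes when none was changed. With 200 changed genes it made 5 false calls for 48 h versus 0 h and 18 for 48 h versus 24 h. The 18 stood beside 63, 52 and 26 calls of genes changed 4-fold, 2-fold and 1.5-fold. When none was changed it called 1 of 17367 and 0 of 17233 genes in these comparisons. The real comparison of 24 h with 0 h called 4494 of 17592 genes, far more than the 200 changed in the simulation. The Benjamini-Hochberg threshold depends on how many genes change, so the simulated rates do not give the power in the real comparisons.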

Additional observations from a re-analysis of the deposited data

How the results depend on the processing

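Of the 360 refits of single members (8 genes, 3 comparisons, 15 alternatives), 290 left direction and side of the threshold as reported, 20 lost a call, 23 gained one and 27 changed sign, the last only for differences under the threshold. The number of members called at 24 h versus 0 h (2) was 1 with library size alone or the replicate block and 4 with all 9 libraries or GC and length offsets. At 48 h versus 0 h (2) it was 4 with all 9 libraries and 1 with the replicate block. At 48 h versus 24 h (1) it was 2 with at least 10 counts in every library, 0 with all 9 libraries, 3 with GC and length offsets and 2 with these offsets and the block. Leaving out 1 library gave 1 to 3, 1 to 3 and 0 to 1 members, and 2607 to 6023, 3471 to 7116 and 1857 to 4356 genes in all; all 9 libraries in 1 fit gave 1043 genes at 48 h versus 24 h against 3732. The replicate numbers were checked for pairing: deviations of same-numbered libraries from their group means correlated at -0.28 to 0.20. Those of differently numbered libraries correlated at -0.39 to 0.38, so the numbers gave no sign of pairing. With 3 libraries in each group this check cannot exclude it. With the block the calls of Ppp1r10 at 24 h (adjusted p = 0.0870) and of Cdca2 at 48 h versus 0 h (adjusted p = 0.126) were lost.
Changed signs, as log2 fold changes: Ppp1cb at 48 h versus 24 h was -0.12 with the offsets, alone or with the block. Ppp1cc at 24 h versus 0 h was -0.0033 with DESeq2, -0.0016 with its size factors, -0.0075 with all 9 libraries and -0.057 to 0.13 with a library left out. Ppp1r2 at 48 h versus 24 h was -0.053 with the offsets and -0.062 with the block as well. Ppp1r7 was -0.038 to 0.12 with a library left out at 24 h, and 0.024 with library size alone at 48 h versus 0 h. Ppp1r8 at 24 h versus 0 h was -0.0031 with DESeq2, -0.0012 with its size factors, -0.0077 with all 9 libraries and -0.064 to 0.092 with a library left out; at 48 h versus 0 h it was 0.069 with library size alone, 0.087 and 0.086 with the offsets alone and with the block, and -0.11 to 0.047 with a library left out; at 48 h versus 24 h it was 0.026 with the offsets, alone or with the block, and -0.081 to 0.018 with a library left out. The causes were not tested. Scaling by library size alone shifted the all-gene median up by 0.11 log2 units against 0 h, at 24 h and at 48 h. With the longest transcript as length, 20 of 24 FPKM values of members and 10 of 12 catalytic sums and shares moved by more than 1 SD, and with library size alone as scaling 5 of the 24 did.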

Other observations

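The list of other phosphatases of mitotic exit held PP2A and its regulators, and also Ppp4c and Ppp6c, the catalytic subunits of PP4 and PP6. The genes named here were picked after their values were seen. Of the 11 genes, 2 fell at 24 h versus 0 h, the catalytic subunit Ppp2ca from a mean of 236 to 183 CPM (-0.36, adjusted p = 0.0400 in edgeR's quasi-likelihood test) and the targeting subunit Ppp2r2a from 177 to 123 CPM (-0.52, adjusted p = 0.00798). Against 0 h 1 rose at 48 h, the related targeting subunit Ppp2r2d, from 73.7 to 98.1 CPM (0.41, adjusted p = 0.0162). From 24 h to 48 h Ppp2r2a (0.24) and Mastl (0.48), the kinase that holds PP2A off during mitosis, rose and Arpp19 (-0.40), a PP2A inhibitor that Mastl switches on, fell. Leaving out 1 library gave 1 to 3, 0 to 3 and 0 to 4 called genes in the 3 comparisons. With all libraries 25.5%, 31.6% and 21.3% of all genes tested were called there.

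The cell cycle lists were counted in the same way. Of all genes tested, 11.4%, 13% and 8.61% were called higher and 14.2%, 18.5% and 12.7% lower in the 3 comparisons. Of the 14 G2/M genes, 2 fell at 24 h versus 0 h, Cdk1 (-0.84) and Ube2c (-0.57), 3 rose and 1 fell at 48 h versus 0 h, and 7 rose and 0 fell from 24 h to 48 h, led by Kif11 (0.54) and Ccnb1 (0.43). Of the 11 S phase genes, 1 fell at 24 h, 5 fell at 48 h versus 0 h, led by Rrm2 (-1.04) and Mcm3 (-0.50), and 4 fell from 24 h to 48 h, with no rise in any comparison. Without 24 h replicate 1 the G2/M count from 24 h to 48 h was 2 and the S phase count 0. Leaving out 1 library gave G2/M counts of 1 to 3 at 24 h and 2 to 7 at 48 h versus 0 h and of 2 to 7 from 24 h to 48 h, and S phase counts of 1 to 2, 1 to 7 and 0 to 4. The share of these changes in the levels of the PP1 genes was not tested.

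Etv5 and Gfra1, genes of undifferentiated spermatogonia, averaged 524 and 230.3 CPM at 0 h, 11.3 and 36.4 CPM at 24 h and 7.78 and 18.0 CPM at 48 h. Over the markers of 7 cell types, 19 of 33 tested genes rose and 4 fell at 24 h versus 0 h, 18 rose and 3 fell at 48 h versus 0 h, and 11 rose and 5 fell from 24 h to 48 h. Of the 6 germ cell markers 2, 1 and 0 rose and 0, 0 and 1 fell.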
